A study of Mus musculus with 10 samples.

Results

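The renin-angiotensin system was examined through 9 genes, Agt, Ren1, Ace, Agtr1a, Agtr1b, Agtr2, Mas1, Atp6ap2 and Enpep, in the mouse infrarenal aorta. The members were the probes whose gene name in the scanner files equalled one of these symbols, control spots left out. This gave 10 probes of 55681 on the array, and 9 of 35527 gene names. All 9 symbols matched the RefSeq gene table. The 10 arrays each held the aorta of 1 male C57BL/6J mouse operated on at 10 weeks and fed a normal diet. PPE mice had the vessel filled for 5 min at 100 mmHg with type I porcine pancreatic elastase (PPE, 1.5 U per mL) in saline. The enzyme breaks down the elastic fibres of the wall, and the vessel then widens into an aneurysm. Sham mice received saline alone in the same way. Each group had 5 mice, and the whole treated segment, from the left renal artery down to where the aorta divides, was taken at day 7. All 10 mice therefore shared the ligatures, the aortotomy and its repair. The model is a local injury of the vessel, without infused angiotensin. Red dye (Cy5) marked the aortic RNA and green dye (Cy3) marked a universal mouse reference RNA, the same in name on every array. Values are log2 ratios of aorta over reference unless another scale is named.

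The renin-angiotensin system controls blood pressure, salt balance and the tone of arteries. Renin cuts angiotensinogen, angiotensin-converting enzyme turns the product into angiotensin II, and angiotensin II acts on muscle and other cells of the wall through its AT1 receptor. The AT2 receptor and the Mas receptor, which binds a shorter peptide, are known for effects that often oppose those of AT1. Angiotensin II given over weeks is itself used to produce aneurysms in mice.

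The sequences the probes read bear on 2 points, the separation of the paired AT1 receptor genes and the reading of renin. Each probe was a 60-mer, and the letters are those of the scanner files, 5′ to 3′. Positions are those the files give on mm9. No exon annotation of that build was used here, so exon, intron and UTR are not assigned. The probes of both AT1 receptor genes come first, in stretches of 30 bases around the longest run they shared, which is in capitals.
Agtr1a (bases 18 to 47 of the probe at chr13:30474638-30474697, plus strand): catatgtatcTCTAAGctgtcatttgatga
Agtr1b (bases 31 to 60 of the probe at chr3:20213539-20213598, minus strand): gttttatttcataTCTAAGaaatgtagtct
The shared run was 6 bases long. In the best ungapped overlap of at least 20 bases, 13 of 26 bases were the same. No other gene name on the array had a probe sharing 20 bases in a row with either of them, or with any other member. That says how far the probes resemble each other and is no measurement of cross-hybridization.

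At the renin locus the array had 3 probe names within 6487 bases of mouse chromosome 1. C57BL/6J mice are known to carry a single renin gene, Ren1, while some other strains carry Ren1 and Ren2. The probe named Ren1 lies upstream, one named LOC100044656 (a predicted transcript) lies between, and one named Ren2 lies furthest downstream. The latter held AATAAA, the usual polyadenylation signal, in capitals below. Only the first meets the rule for members, and the other names are given because they lie at the same locus.
Ren1 (chr1:135250782-135250841, plus strand): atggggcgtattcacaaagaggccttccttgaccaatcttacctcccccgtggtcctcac
LOC100044656 (chr1:135255035-135255094, plus strand): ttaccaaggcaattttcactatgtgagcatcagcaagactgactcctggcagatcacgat
Ren2 (bases 19 to 48 of the probe placed at chr1:135256847-135257268, plus strand): aaggaaaaaccgAATAAAgatttcatgttt
The longest run shared by any pair of these 3 probes was 6 bases, so each read a separate stretch. The files place the 60 bases of the Ren2 probe over a wider interval than the probe's length.

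The single Agt probe is shown because it was the only reading of the precursor.
Agt (chr8:127083142-127083201, minus strand): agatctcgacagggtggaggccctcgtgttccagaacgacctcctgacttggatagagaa
The probes of Ace (chr11:105850398-105850457), Agtr2 (chrX:21065564-21065623), Atp6ap2 (chrX:12193624-12193683) and Enpep (chr3:128972910-128972969) were likewise the only ones of their genes. Mas1 had 2 probes, at chr17:13033943-13034002 and chr17:13033918-13033977, which shared 35 bases and so were not separate readings.

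Spots with red signal well above background made up 37.6% (sham 5) to 65.8% (PPE 1) of each array. Sham 1, PPE 1 and PPE 2 shared slide 1, which was all of the second scan day, sham 2, sham 3, PPE 3 and PPE 4 shared slide 2, and the other 3 arrays were alone on their slides. Of 22520 gene names tested, 3116 were higher and 2243 lower in PPE at a limma adjusted p under 0.01 (Benjamini-Hochberg), and the median log2 fold change was 0.02. With arrays only centred on their medians, without loess, there were 408 higher and 8 lower names and the median moved to 0.41, so values under it are read against 0.41. The green channel, which should carry the same reference everywhere, also differed between the groups. Taken alone after quantile normalization, it was higher in PPE for 41 and lower for 90 of 24120 names (0.543%), and 127 of these 131 had the same sign in the red channel. A log ratio is reduced where the reference moves with the aorta. Each member is therefore given also by its red channel alone, quantile-normalized, a reading chosen after the data were seen. Why the green channel differed was not tested.

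Of the 9 members, 7 were bright enough to test. By log ratio 1 of 7, Atp6ap2, was higher in PPE, where 13.8% of all names were higher. None of the 7 was lower in limma, against 9.96% of all names. SAM, the type of test the study used, was also run here on the same ratios. It called 3249 of 22520 names lower, Agtr1b among them. Without adjustment, 3 of the 7 had a p under 0.05, as did 9821 of all names tested. The groups did not overlap in 1 of 7 (25.5% of all names). The median log2 fold change of the 7 was -0.13. By the red channel alone, 2 of 7 were lower, Ace and Agtr1b (12.6% of all names), and none was higher (12.3%). The calls for Ace, Agtr1b and Atp6ap2 thus depended on the reading, and all other tested members missed the threshold in both.

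**Figure D1:**
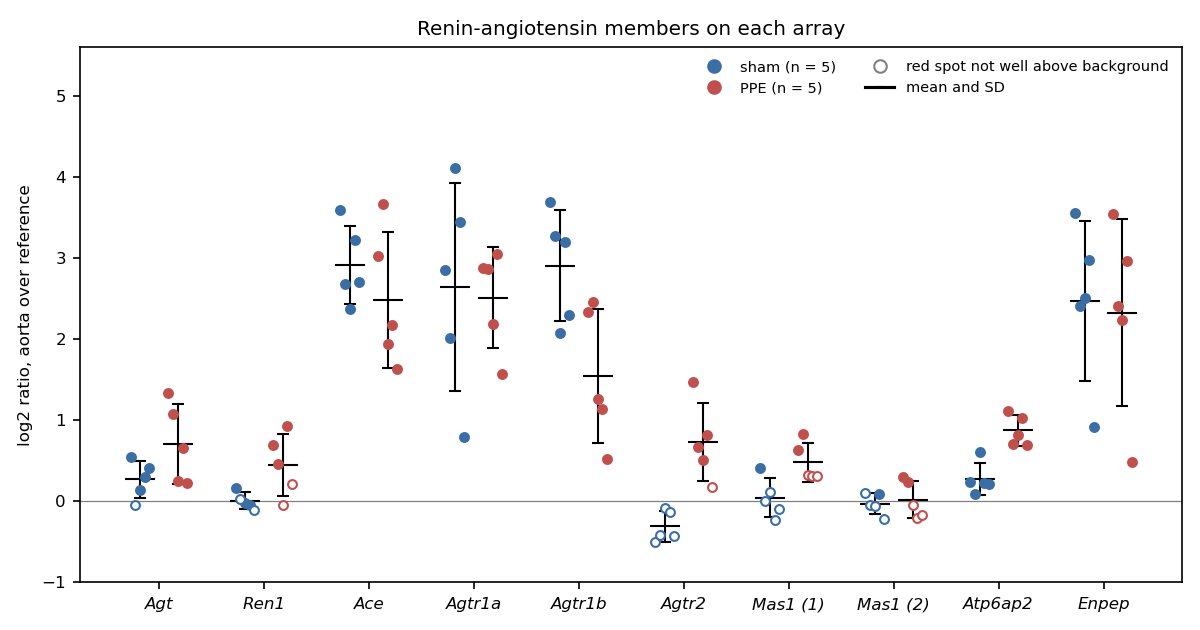
Log2 ratio of aorta over reference for the 10 probes of the 9 members, 1 point per array, with group mean and SD (n = 5 each); open points are red spots not well above background. Atp6ap2 and Agtr2 show no overlap between sham and PPE, while Ace, Agtr1a and Enpep overlap widely.

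Agt encodes angiotensinogen, the substrate of renin, which is made mainly by the liver and also by fat and the vessel wall. Its log2 ratios were 0.54, -0.04, 0.14, 0.30 and 0.41 in sham 1 to 5 and 1.33, 1.07, 0.24, 0.66 and 0.22 in PPE 1 to 5. PPE 3 and PPE 5 lay within the sham range, and the other PPE arrays lay above it. The change on the log2 scale was 0.44 (limma, SE 0.22, 95% confidence interval -0.05 to 0.92, adjusted p = 0.152), which did not pass the threshold. By the red channel alone the difference was 0.27 (SE 0.17, adjusted p = 0.279). Fat markers were also measured in these samples. Of 8 adipocyte and brown fat markers 2, Ucp1 and Cidea, were lower in PPE and none was higher. The mean log2 ratio of that list ran from 4.75 to 5.87 in sham and from 3.60 to 5.21 in PPE. Those calls are by log ratio. The red signal, after loess and scaling of brightness between arrays, had a lower mean in PPE for all 8. It ran from 0.0072 (Ucp1) to 0.62 (Lep) of that in sham, values not tested. The part of fat in the Agt result was not tested.

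The probe named Ren1 was near the limit of detection. It stood well above background on 3 sham and 3 PPE arrays. Its log2 ratios were 0.17, 0.03, -0.02, -0.04 and -0.10 in sham 1 to 5. In PPE 1 to 5 they were 0.70, 0.46, -0.05, 0.93 and 0.21. All PPE arrays but PPE 3 were above every sham array. The log2 fold change was 0.44 (limma, SE 0.17, adjusted p = 0.0641), short of the threshold. By the red channel alone the difference was 0.32 (SE 0.14, adjusted p = 0.0967).

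The other probe names at the renin locus were measured over a wider range. The Ren2 probe was above background on all 10 arrays, with log2 ratios of 0.999, 0.28, 0.34, 1.08 and 0.44 in sham 1 to 5 and of 2.29, 2.49, 0.98, 2.63 and 2.09 in PPE 1 to 5. PPE 3 lay within the sham range and the other 4 PPE arrays lay above it. PPE exceeded sham by a log2 fold change of 1.47 (limma, SE 0.30, adjusted p = 0.00234), a 2.77-fold higher ratio in PPE. By the red channel alone it was 1.09 (SE 0.27, adjusted p = 0.00650). Within slide 1 the group means differed by 1.39 and within slide 2 by 1.50. The call was lost in 5 alternatives, slide as a fixed block among them (adjusted p = 0.0140), and adjusted p over all alternatives ran from 0.000129 to 0.114.

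LOC100044656 was above background on 2 sham and 5 PPE arrays. It was bright enough to test only through the PPE arrays, where it is high, so the filter favoured a higher call. Its log2 ratios were 0.58, 0.13, 0.11, 0.38 and 0.07 in sham 1 to 5 and 1.82, 1.90, 0.18, 1.89 and 0.76 in PPE 1 to 5. Again PPE 3 was the array inside the sham range. The log2 fold change of 1.05 (limma, SE 0.32, adjusted p = 0.0239) missed the threshold, and the red channel alone passed it at 0.82 (SE 0.21, adjusted p = 0.00750). Over all alternatives its log2 fold change ran from 0.77 to 1.81 and its adjusted p from 0.00186 (without PPE 3) to 0.297 (slide 2 alone). Of the 3 probes, then, 1 passed by log ratio and 2 by the red channel alone, and all 3 had a higher PPE mean. Ren2 and LOC100044656 were added after their values were seen, so this count is a description only. Whether the other 2 names read the Ren1 gene of C57BL/6J was not tested. Among 5 kidney markers 1, Cdh16, was bright enough to test, and it was lower in PPE (limma, -1.29, adjusted p = 0.000237). Cdh16 was above background on 4 sham and 1 PPE arrays. It just reached the number required for a test, mainly through the sham arrays, where it is high, so the filter favoured a lower call. Umod was above background on no array, Slc12a1 on 0 sham and 2 PPE arrays, Slc34a1 on 1 and 3, and Kap on 1 and 1.

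**Figure D2:**
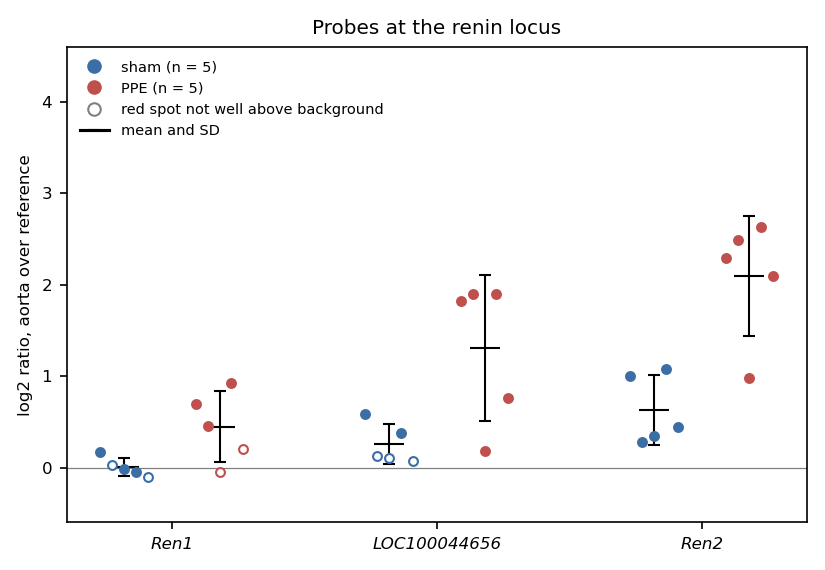
Log2 ratio of aorta over reference for the 3 probe names at the renin locus, from upstream to downstream, 1 point per array with group mean and SD (n = 5 each); open points are red spots not well above background. PPE 3 is the lowest PPE point for all 3 names, and 4 of 5 PPE points are above all sham points in each.

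Ace encodes angiotensin-converting enzyme, which sits mainly on endothelial cells, makes angiotensin II and breaks down bradykinin. The 2 readings of the arrays parted here. By log ratio, sham 1 to 5 gave 3.59, 2.68, 2.37, 3.22 and 2.71 and PPE 1 to 5 gave 3.03, 3.67, 1.94, 2.17 and 1.63. The highest PPE array, PPE 2, stood above all sham arrays, and PPE 3, PPE 4 and PPE 5 stood below them. This gave a log2 fold change of -0.43 (limma, SE 0.37, 95% confidence interval -1.25 to 0.39, adjusted p = 0.424). Median centring turned the sign to 0.26, still below the median of all names under it.

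In the red channel alone, the log2 signal of Ace was 10.26, 9.98, 10.05, 10.13 and 10.45 in sham 1 to 5 and 8.91, 9.93, 8.84, 8.77 and 8.54 in PPE 1 to 5. Every PPE array was below every sham array, with PPE 2 the closest. The difference was -1.18 (limma, SE 0.23, adjusted p = 0.00121), a 2.26-fold lower signal in PPE. The green channel moved the same way, from 7.95, 8.12, 8.42, 7.97 and 8.37 in sham 1 to 5 to 7.38, 7.60, 7.78, 7.61 and 7.15 in PPE 1 to 5. That is a difference of -0.66 between groups that did not overlap (limma adjusted p = 0.0327 over all names tested in green). The red difference was -0.84 within slide 1 and -1.21 within slide 2. It passed the threshold with each array left out in turn (-1.41 without PPE 2 to -1.06 without PPE 5), within slide 2 alone (adjusted p = 0.00724) and with slide as a random block (adjusted p = 0.000496). Of 8 endothelial markers none was called by log ratio, and the mean log2 ratio of that list ran from 2.35 to 3.28 in sham and from 2.48 to 3.47 in PPE. That is not the reading in which Ace was called. The part of endothelial cells in the Ace result was not tested.

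Agtr1a and Agtr1b encode the AT1 receptor, which raises calcium in smooth muscle and contracts it. Rodents carry both genes, and their proteins are near-identical. By log ratio Agtr1b was 3.69, 3.27, 2.08, 3.19 and 2.29 in sham 1 to 5 and 2.33, 2.45, 1.26, 1.13 and 0.52 in PPE 1 to 5. PPE 1 and PPE 2, of slide 1, lay among the sham arrays, and the other 3 lay below all of them. The log2 fold change was -1.36 (limma, SE 0.41, 95% confidence interval -2.27 to -0.46, adjusted p = 0.0230), a 2.57-fold lower ratio that missed the threshold. It passed with scan day as a fixed block (-1.61, adjusted p = 0.000586) and with slide as a random block (-1.43, adjusted p = 0.00290). In the deposited ratios the change was much smaller. It was -0.29 in the LogRatio values (limma adjusted p = 0.673) and -0.29 in the series matrix (limma adjusted p = 0.672). The adjusted p of Agtr1b over all alternatives ran from 7.70e-06 to 0.673.

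The red channel alone separated the groups for Agtr1b. The log2 signal was 9.01, 9.62, 8.51, 9.07 and 9.18 in sham 1 to 5 and 7.37, 7.74, 7.27, 7.05 and 6.97 in PPE 1 to 5, without overlap. The difference was -1.80 (limma, SE 0.20, adjusted p = 1.78e-05), a 3.48-fold lower signal. It was -1.46 within slide 1 and -1.90 within slide 2, where 4 arrays alone did not pass (adjusted p = 0.0283). With each array left out in turn it ran from -1.94 to -1.66 and passed each time. Green was well above background on 1 array only for this probe, so the denominator of its log ratio was mostly background.

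Agtr1a had the widest spread of the members among sham arrays, with log2 ratios of 2.85, 2.02, 4.10, 3.44 and 0.79 in sham 1 to 5 and of 2.88, 2.87, 2.19, 3.05 and 1.57 in PPE 1 to 5. The PPE arrays all lay inside the sham range. Its log2 fold change was -0.13 (limma, SE 0.54, 95% confidence interval -1.32 to 1.06, adjusted p = 0.885), an interval that holds a change of more than 2-fold either way. By the red channel alone it was -0.46 (SE 0.41, adjusted p = 0.447). On the same arrays the change of Agtr1a exceeded that of Agtr1b by 1.24 (SE 0.70), which the exact permutation test did not set apart from the spread (p = 0.103, adjusted over the 21 pairs of tested members 0.241).

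Smooth muscle markers were also lower in PPE. Of 10 such markers 9 were lower in PPE and none higher, and the mean log2 ratio of the list ran from 3.41 to 4.55 in sham and from 1.68 to 2.84 in PPE. Those are calls by log ratio, a reading in which the main fit did not call Agtr1b. The red signal, after loess and scaling of brightness between arrays, was 0.069 (Myh11, the marker not called) to 0.41 (Actg2) of that in sham. In the green channel 4 of the 8 markers tested there were lower in PPE, where 0.543% of all names differed. In tissue RNA, fewer cells of a type and less RNA per cell cannot be told apart. The part of the smooth muscle markers in the Agtr1b result was not tested.

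**Figure D3:**
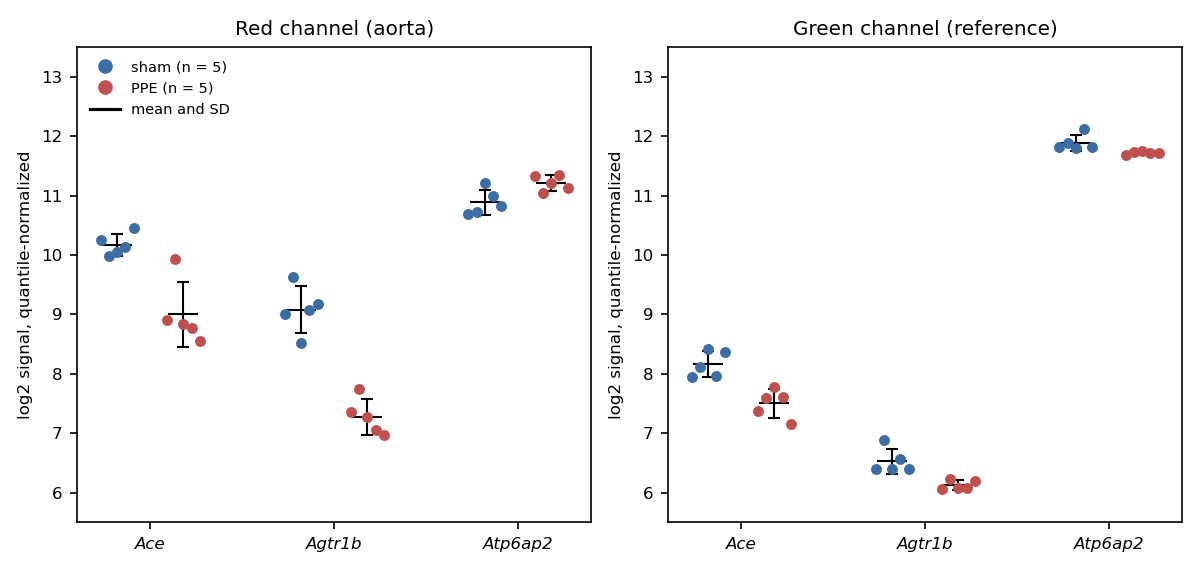
Quantile-normalized log2 signal of Ace, Agtr1b and Atp6ap2 in the red (aorta) channel, left, and the green (reference) channel, right, 1 point per array with group mean and SD (n = 5 each). Ace and Agtr1b separate the groups in red, and the green signals of all 3 are lower in every PPE array than in every sham array. The green differences of Ace and Atp6ap2 missed the threshold (limma adjusted p = 0.0327 and 0.807), and Agtr1b was too dim in green to test.

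Agtr2 encodes the AT2 receptor, best known from fetal tissue and from injured adult vessels. None of the sham arrays and 4 of the PPE arrays had red signal well above background, 1 short of the number required for a test. The log2 ratios were -0.50, -0.41, -0.08, -0.13 and -0.42 in sham 1 to 5 and 1.47, 0.67, 0.51, 0.82 and 0.17 in PPE 1 to 5. The groups did not overlap, and PPE 5, the lowest PPE array, was the one not above background. The mean ratio differed by 1.04. For a bound, each sham array was given its own signal or the lowest that counted as above background on it, whichever was larger. Set against that, the red signal in PPE, after loess and scaling of brightness between arrays, was at least 1.97-fold higher (measured 2.09-fold). The quantile-normalized red channel alone differed by 0.91 on the log2 scale, again without overlap. With no filter on dim probes, the fit over 35527 names gave a limma adjusted p of 0.00415. The difference was 1.57 within slide 1 and 0.91 within slide 2.

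Mas1 encodes the receptor of angiotensin 1-7. Each of its probes was above background on 1 sham and 2 PPE arrays, too few for a test, and on the other arrays it was not well above background. The first ran from -0.23 to 0.41 in sham and from 0.31 to 0.83 in PPE. The second ran from -0.22 to 0.10 in sham and from -0.21 to 0.29 in PPE. The group means differed by 0.44 and 0.05, and in the red channel alone by 0.27 and 0.0075.

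Atp6ap2 encodes the prorenin receptor, which is also an accessory subunit of the proton pump that acidifies vesicles. It was the only member with a higher call by log ratio. The log2 ratios were 0.24, 0.09, 0.61, 0.22 and 0.21 in sham 1 to 5 and 1.11, 0.71, 0.81, 1.02 and 0.70 in PPE 1 to 5. All PPE arrays were above all sham arrays, with sham 3 nearest to them. On average the log2 fold change was 0.60 (limma, SE 0.13, adjusted p = 0.00368), a 1.51-fold higher ratio, and the exact two-sided permutation test gave p = 0.00794, the smallest that 5 against 5 allows. Among all names tested 3461 had a larger increase.

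The red channel alone gave a smaller difference for Atp6ap2, 0.33 (SE 0.13, adjusted p = 0.0676), which missed the threshold. There the log2 signal was 10.70, 10.72, 11.20, 10.99 and 10.82 in sham 1 to 5 and 11.34, 11.04, 11.22, 11.34 and 11.13 in PPE 1 to 5, so that the groups overlapped. The green signal was lower in PPE by 0.17, on every array, which adds to the log ratio. That green difference was far from the threshold (limma adjusted p = 0.807 over all names tested in green). The call by log ratio was also lost under median centring (1.23, adjusted p = 0.226), in the LogRatio values (0.53, adjusted p = 0.0179), with slide as a fixed block (0.61, adjusted p = 0.0242), outside slide 1 (adjusted p = 0.0329) and without sham 1, sham 2, sham 4, PPE 1 or PPE 4 (adjusted p = 0.0101 to 0.0125). Of 9 macrophage markers 6 were higher in PPE, none was lower, and their mean log2 ratio ran from 0.97 to 1.64 in sham and from 2.93 to 3.99 in PPE. Their part in the Atp6ap2 result was not tested. Over the 10 log2 ratios, the 3 genes most like Atp6ap2 among 11956 were Me2 (Pearson r 0.975), Cmpk1 (0.974) and Fndc3a (0.973), a description in which group differences alone raise r.

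Enpep encodes aminopeptidase A, which shortens angiotensin II to angiotensin III. Its log2 ratios were 3.56, 2.41, 2.51, 2.98 and 0.91 in sham 1 to 5 and 3.54, 2.41, 2.24, 2.96 and 0.49 in PPE 1 to 5. In each group the array numbered 5 was far the lowest, and these were also the arrays with the fewest red spots above background. The log2 fold change was -0.15 (limma, SE 0.57, 95% confidence interval -1.40 to 1.11, adjusted p = 0.877), and the red channel alone gave -0.51 (SE 0.31, adjusted p = 0.235). Green was above background on 2 arrays for this probe.

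**Figure D4:**
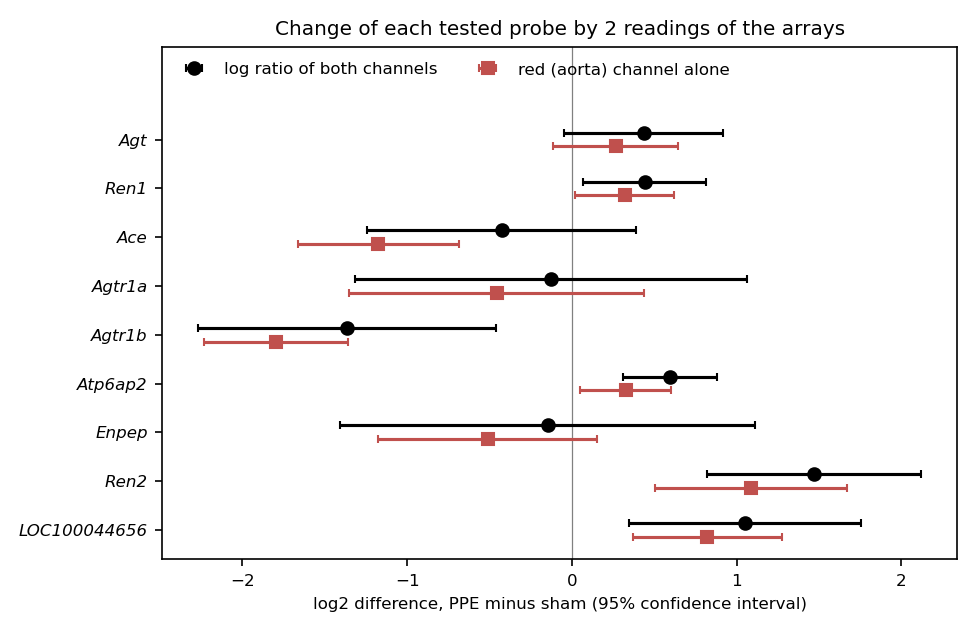
Difference between PPE and sham (log2) with its 95% confidence interval for each tested probe, by the log ratio of both channels (black circles) and by the red channel alone (red squares). For Ace and Agtr1b the red channel gives the larger decrease and the narrower interval, and for Atp6ap2 it gives the smaller increase.

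The members were also set against each other, by the change of one minus the change of another on each array. Of 21 pairs of the 7 tested members, none passed an adjusted p of 0.05 by log ratio. The exact two-sided permutation test gave its smallest possible p, 0.00794, for Agt, Ren1 and Ace each against Agtr1b (adjusted p = 0.0556). Even that p thus stayed above 0.05 after adjustment over 21 pairs, and passing needed more pairs at or near it together. The lack of passing pairs by log ratio therefore does not show that the members changed alike. Agt rose relative to Agtr1b by 1.80 (SE 0.36), Ren1 by 1.81 (SE 0.45) and Ace by 0.94 (SE 0.21), each on all 5 PPE arrays beyond every sham array. In the red channel alone 7 of 21 pairs passed. Agt, Ren1, Ace and Atp6ap2 each differed from Agtr1b (exact permutation p = 0.00794, adjusted p = 0.0278), as did Agt and Ren1 from Ace, and Ace differed from Atp6ap2 (adjusted p = 0.0476). No pair with Agtr1a or Enpep passed in either reading.

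Other genes of the pathway were read from lists. Among enzymes that process angiotensin peptides, 14 of 15 were tested, 5 were higher, none was lower by limma, and the median log2 fold change was 0.55. Prcp, a carboxypeptidase that trims angiotensin II, rose by 1.96 (limma, SE 0.17, adjusted p = 6.13e-06). Rnpep, an arginine aminopeptidase also known as aminopeptidase B, rose by 1.13, the lysosomal proteases Ctsd by 0.98 and Ctsa by 0.69. Further probes gave less: 1.06 for Prcp (adjusted p over probes 0.000324), 0.36 for Ctsa (0.0122) and 0.16 for Ctsd (0.671), the last 2 not called. Mme, neprilysin, had a log2 fold change of -1.15 (SE 0.37, adjusted p = 0.0309) and Cma1, mast cell chymase, of 0.00 (SE 0.38, adjusted p = 0.999), neither past the threshold.

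Among receptor partners and signalling genes, 20 of 21 were tested, 6 were higher and 5 lower, with a median of -0.18. The beta-arrestin Arrb2 rose by 2.60 (limma, SE 0.15, adjusted p = 5.89e-07), the kinase Jak2 by 1.40 and Agtrap, which binds the AT1 receptor and promotes its uptake, by 1.12 (SE 0.23, adjusted p = 0.00262). The phospholipase C gene Plcb4 had a log2 fold change of -2.31 (SE 0.18, adjusted p = 3.60e-06) and the calcium release channel Itpr1 of -1.45 (SE 0.21, adjusted p = 0.000258).

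The kinin arm shares Ace with the angiotensins, since Ace degrades bradykinin. Of its 8 genes 6 were tested, 4 were higher and 1 lower, with a median of 1.25. The kininogens Kng2 and Kng1 rose by 2.14 (SE 0.50) and 1.67 (SE 0.24). They are near-identical, so a probe may read both. Tissue kallikrein Klk1, of a large family of like genes, rose by 1.64 (SE 0.31), and the B1 kinin receptor Bdkrb1 by 0.87 (limma, SE 0.20, adjusted p = 0.00480). Klk1 and Bdkrb1 were each above background on 2 sham and 5 PPE arrays. They were bright enough to test only through the PPE arrays, where they are high, so the filter favoured a higher call for them. Cpn2, a subunit of carboxypeptidase N, had a log2 fold change of -1.92 (SE 0.41, adjusted p = 0.00336). Cpn2 was above background on 4 sham and 2 PPE arrays. It reached the number required for a test mainly through the sham arrays, where it is high, so the filter favoured a lower call. The B2 receptor Bdkrb2 was above background on no array.

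Of 6 genes of the mineralocorticoid arm 3 were tested and 1, Cyp21a1, was higher (0.56, SE 0.13, limma adjusted p = 0.00480). Cyp21a1 is an enzyme of the adrenal cortex. Of 5 adrenal cortex markers 1, Star, was tested and was higher too (0.60, limma adjusted p = 0.00322), with log2 ratios from -0.29 to 0.02 in sham and from 0.27 to 0.80 in PPE. Cyp11a1 was above background on 0 sham and 3 PPE arrays, Cyp11b1 on 0 and 2, and Hsd3b1 on none. Their part in the Cyp21a1 result was not tested. Aldosterone synthase, Cyp11b2, was above background on no array. The proton pump, of which Atp6ap2 is an accessory part, changed little as a list, with 2 of 17 genes higher, 1 lower and a median of 0.12. Atp6v0d2, a subunit known from osteoclasts and macrophages, was above background on no sham array and on all PPE arrays. Its red signal, after loess and scaling of brightness between arrays, was at least 3.58-fold higher in PPE, a bound equal to the measured fold. Its log ratio rose by 2.01 (limma, SE 0.29, adjusted p = 0.000235). Atp6v0d2 was bright enough to test only through the PPE arrays, where it is high, so 1 of the 2 higher calls of this list could not have gone the other way. Atp6v0c rose by 0.72 and Atp6v0e2 had a log2 fold change of -1.29 (SE 0.24, adjusted p = 0.00131).

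**Figure D5:**
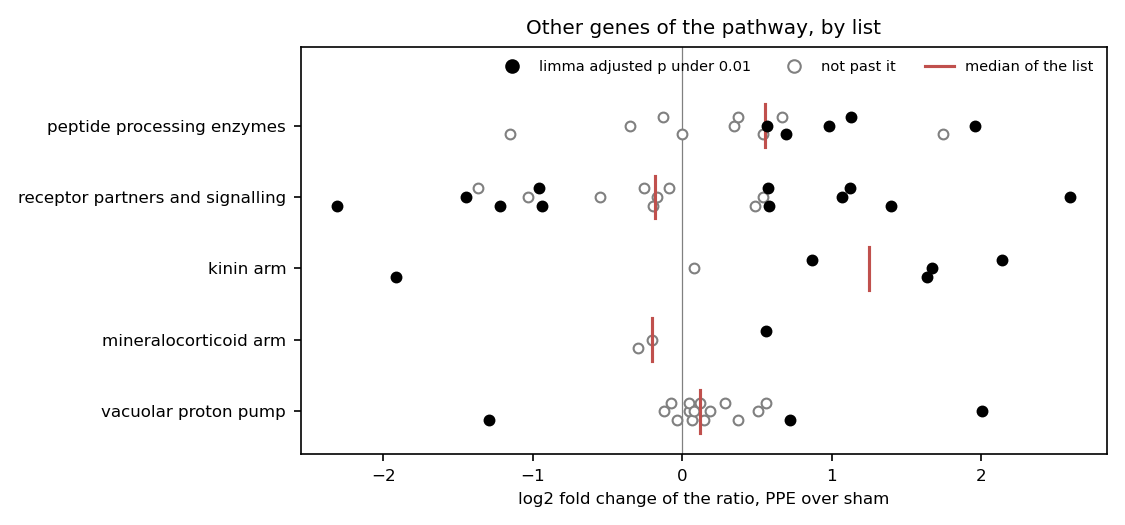
Log2 fold change of the ratio, PPE over sham, for the tested genes of 5 pathway lists, 1 point per gene, with filled points past a limma adjusted p of 0.01 and a red line at each list's median. The medians run from -0.20 (mineralocorticoid arm) to 1.25 (kinin arm).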

How the data were processed

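The authors scanned 10 two-colour arrays with Agilent Feature Extraction 10.7.3.1. Deposited signals are linear intensity values. LogRatio, also deposited, is the log10 of red over green, and the authors' series matrix holds log2 ratios, which equalled log2 of processed red over green on all spots compared (tolerance 0.001). Dyes were not swapped, so a dye effect that is the same on all arrays cancels between groups. Per the study's methods, arrays of poor hybridization and outliers had been removed, and which is not stated. In R 4.3.3 with limma 3.58.1, normexp (offset 50) and loess were applied, outlier spots were left out and probes were averaged over spots. The offset draws dim ratios towards 0. A probe was tested if red was well above background on at least 5 arrays. A gene was read by its brightest tested probe. Groups from the sample labels were compared with lmFit and eBayes, two-sided, at an adjusted p of 0.01. SAM (100 relabellings), other normalizations, blocks and left-out arrays were alternatives. Single channels were quantile-normalized after normexp. The fit was checked on simulated data. The members and gene lists were chosen with earlier results of these data known. Text names all members, up to 4 called genes of most change per pathway list, and Cma1, Mme, Agtrap and Bdkrb1. A further gene chosen this way is not reported here. The renin locus names Ren2 and LOC100044656 were added after their values were seen. The files say that each array held 1 aorta. The number of arrays limits precision.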

Additional observations from a re-analysis of the deposited data

Results flagged for a closer look

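The green channel, which the main comparison uses only as a denominator, carried a signal of its own: 131 of 24120 gene names differed between sham and PPE arrays in the reference (limma adjusted p under 0.01). Ace (-0.66, adjusted p = 0.0327) was not among them. Why the reference differed was not tested. No group of 5 log2 ratios of a member or renin locus probe held a value far from the others by Dixon's test (26 groups with the shares of red spots above background).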

How the results depend on the processing

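Members called higher numbered 0 under median centring, LogRatio, the series matrix, slide as a fixed block, the red channel alone, slide 2 alone and outside slide 1, 2 with no filter on dim probes (Agtr2 joined), and 0 to 1 with 1 array left out. Members called lower numbered 1 under the replicate block, slide as a fixed or random block, scan day, array weights, SAM and outside slide 1, 2 by the red channel alone, and 0 with any 1 array left out. Other pathway genes (higher, lower) numbered 2 and 0 under median centring, 7 and 3 on slide 2, 11 higher outside slide 1 and 11 lower by red alone (14 to 23 and 5 to 9 with 1 array left out). Marker genes numbered 2 and 0 under median centring, 7 and 8 on slide 2, 20 higher under SAM and 21 lower by red alone (10 to 14 and 13 to 14). All names numbered 408 and 8 under median centring, 1267 and 673 on slide 2, 2029 and 1419 outside slide 1, and 4955 higher under SAM (2512 to 3615 and 1754 to 2352). Pairs of members that differed numbered 5 under median centring, 7 by red alone and 0 with any 1 array left out. Signs turned for Ace under median centring (0.26), for Agtr1a under median centring (0.21), array weights (0.0039), without sham 3 (0.24), sham 4 (0.07) or PPE 5 (0.11), and for Enpep under median centring (0.019), array weights (0.018), slide 2 alone (0.14), without sham 1 (0.13) or PPE 5 (0.32). With 1 array left out Agtr1a ran from -0.59 to 0.24 and Enpep from -0.54 to 0.32. None of these was called by log ratio. The causes were not tested. Equal replicate numbers did not pair the arrays (correlations -0.30 to 0.52), and the replicate block gave Agtr1b a log2 fold change of -1.36 with an adjusted p of 0.00145. Dim green signal limits Agtr1b and Enpep, and dim red signal limits Ren1, Agtr2 and Mas1.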
